A study of Mus musculus with 6 samples.

Results

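The flank studied here is the stretch of mouse chromosome 17 that follows the distal enhancers of Satb1, 0.69 to 1.5 Mb from a bait at position 51962000 (mm9 build) inside Satb1 (chr17:51875512-51972615, minus strand), towards higher coordinates. Its members are all DpnII restriction fragments whose midpoints lie between those distances, and together they cover chr17:52649613-53461933. They number 2143, of 7547 fragments within 1.5 Mb of the bait, 229546 listed for the chromosome and 916352 listed over the 3 bait chromosomes of the series. The interval is 812 kb wide and was defined by position alone, so no read count entered the choice of fragments, but it was proposed with earlier results of these libraries known.

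The contacts were measured by 4C-seq, in which formaldehyde-fixed chromatin is cut with DpnII, ligated, cut again with Csp6I, circularised and amplified from a bait fragment, so that each read marks a fragment that was ligated to the bait. One library came from DP cells, the CD4+/CD8+ double positive thymocytes sorted by FACS from thymus of 4 week old mice of strain c57/Bl6. The other came from ES cells of the J1 line, strain 129S4/SvJae, taken off their feeder cells by passaging. There was 1 library per cell type and no treatment, so no test of a difference between DP and ES could be made, and strain, culture and library cannot be told apart from cell type. The only replicated libraries of the series, 2 of ES cells with a bait at the Sox2 control region (SCR), were used as a gauge of the spread between libraries.

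Satb1 encodes a nuclear protein that binds AT-rich DNA, is abundant in thymocytes and is needed for T cell development. A promoter tends to meet the sequences around it most often inside a contact domain, a stretch of chromosome whose parts touch each other more than they touch the sequence outside. At many domain ends the DNA-binding protein CTCF and the ring-shaped cohesin complex hold the fibre, and contacts fall there more steeply than with distance alone. The gene in the middle of the flank is Kcnh8, a subunit of a voltage-gated potassium channel, and past it the annotation is nearly empty.

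The flank holds a single long gene. Kcnh8 (ENSMUSG00000035580.8) is on the plus strand at chr17:52865084-53044561, 903 to 1083 kb from the bait, and is 179 kb long. A second gene model of the same name (ENSMUSG00000073383.3) lies on the minus strand at chr17:53093281-53121602. No other annotated gene overlaps the interval. The nearest genes outside are a miRNA gene, AC121600.1, at chr17:52544362-52544442 on the bait side, and the pseudogene Gm6941 at chr17:53493835-53494149 beyond, with the protein-coding gene Efhb from 53538214 on.

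The places that the results turn on are shown by sequence, on the plus strand of mm9, with the cutting sites of both enzymes (GATC and GTAC) in capitals. The fragment with the most DP reads in the flank is shown first (chr17:52696326-52696664, its first 300 bases), then the DP fragment of rank 3, which lies 2.26 kb past the end of Kcnh8 just before the steepest fall (chr17:53046818-53047008, whole), and the fragment with the most ES reads (chr17:52739893-52740502, its first 300 bases).
DP top fragment: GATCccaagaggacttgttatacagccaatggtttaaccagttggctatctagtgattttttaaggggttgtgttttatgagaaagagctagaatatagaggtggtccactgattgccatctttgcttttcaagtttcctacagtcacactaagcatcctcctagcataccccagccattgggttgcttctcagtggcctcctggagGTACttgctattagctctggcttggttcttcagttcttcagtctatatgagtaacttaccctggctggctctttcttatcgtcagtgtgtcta
DP fragment past the end of Kcnh8: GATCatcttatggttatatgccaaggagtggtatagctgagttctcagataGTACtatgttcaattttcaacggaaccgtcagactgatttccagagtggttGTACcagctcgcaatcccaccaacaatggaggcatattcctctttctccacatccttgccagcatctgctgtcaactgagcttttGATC
ES top fragment: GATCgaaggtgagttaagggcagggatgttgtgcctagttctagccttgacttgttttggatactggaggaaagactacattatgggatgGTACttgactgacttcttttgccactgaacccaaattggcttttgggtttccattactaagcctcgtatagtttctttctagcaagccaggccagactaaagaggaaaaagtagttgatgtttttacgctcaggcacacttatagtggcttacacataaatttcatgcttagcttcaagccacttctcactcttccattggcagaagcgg

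The DP library held 1997083 reads on chromosome 17 and the ES library 1847598. Within 1.5 Mb of the bait lay 83.0% of the DP reads and 66.8% of the ES reads. The flank took 55878 reads in DP, 2.80% of the total (95% Wilson interval 2.78 to 2.82%), and 45284 in ES, 2.45% (2.43 to 2.47%). Those intervals cover read counting only, and PCR copies of one ligation cannot be told from separate ligations. At the same distances from the SCR bait the ES replicates held 3.53% and 3.33% of their reads on the higher side and 2.21% and 1.80% on the lower side.

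As a whole, the flank was about equally high in both cell types and differed in how its reads were spread. DP had a mean of 26.1 reads per fragment and ES one of 21.1. After quantile normalization of both libraries within 1.5 Mb of the bait, which gives both the same distribution of values, the means were 24.7 and 20.8, a ratio of DP to ES of 1.19. The whole-interval ratio between the SCR replicates was 1.18 on one side and 1.43 on the other. The difference between DP and ES was thus about as large as the first of these and smaller than the second. Its direction also rested on the scaling: scaled to the reads within 1.5 Mb it was 0.919.

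DP reads were concentrated on fewer fragments. At least 1 read was found on 222 of the 2143 fragments in DP (10.4%, Wilson interval 9.14 to 11.7%) and on 392 in ES (18.3%, 16.71 to 19.99%). The 10 highest fragments held 25.5% of the flank's DP reads and 16.97% of its ES reads. Both libraries detected 77 fragments, 34.7% of those found in DP and 19.6% of those found in ES, while 1606 were found in neither. At the same distances the SCR replicates shared 207 fragments on the higher side, 52.8% of those in replicate 1 and 36.4% of those in replicate 2, and 150 on the lower side, 57.5% and 40.9%. Such shares rise with the number of fragments detected. The replicates detected 392 and 569 on the higher side and 261 and 367 on the lower. The shares alone thus do not show whether DP and ES overlapped less than replicates do. Of the flank's fragments 1504 had at least 1 end of 26 nt that occurs once among all DpnII ends of the genome, and they held 97.6% of the DP and 95.7% of the ES reads.

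**Figure D1:**
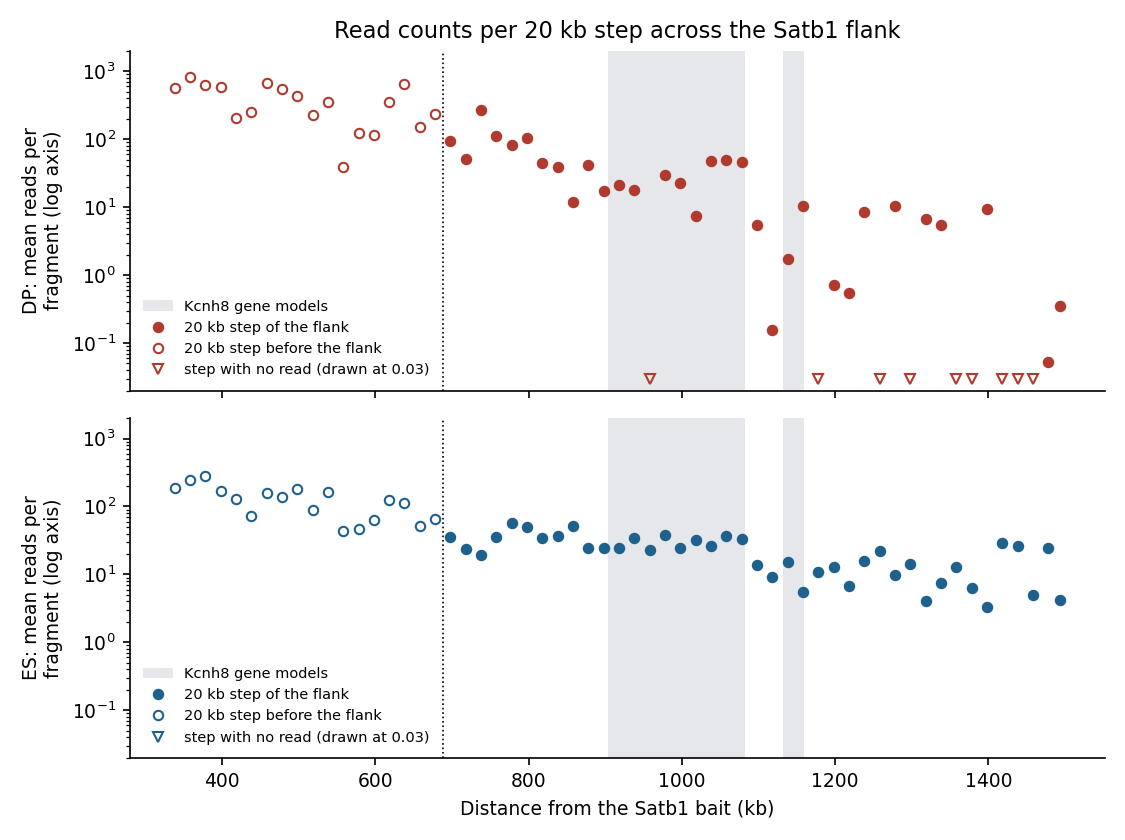
Mean reads per fragment in 20 kb steps (log axis) against distance from the Satb1 bait, DP above and ES below. Filled points are steps of the flank, open points steps before it, and open triangles steps with no read; the DP points fall by steps and reach no reads at 9 places, whereas every ES step holds reads.

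The question was where the contact domain of Satb1 ends in each cell type. To find it, borders were placed every 20 kb from 488 kb on, and at each the mean reads per fragment in the 100 kb before it was divided by that in the 100 kb beyond. The steepest fall in DP was at 1108 kb, after position 53070000, where the mean went from 30.3 to 2.76, a 10.99-fold fall. In ES the steepest fall was 1 border closer, at 1088 kb, after position 53050000, where it went from 30.6 to 10.9, a 2.81-fold fall. With sides of 100 kb the borders of both libraries thus lay within 20 kb of each other, 5.44 kb past the last base of Kcnh8 in ES and 25.4 kb past it in DP. With other widths they did not: sides of 50 kb put the DP border after 53390000 and the ES one after 52650000, and sides of 200 kb put them after 52790000 and 52510000. In DP only 7.34% of fragments in the 100 kb before 1108 kb had a read. Most of those reads lay in 3 raised steps from 1028 to 1088 kb (47.4, 49.6 and 46.3 per fragment), against 7.33 in the step at 1008 kb. At the borders from 948 to 1028 kb the DP ratio was below 1. The DP border is thus also the far edge of a raised, sparse stretch.

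The fall itself was deeper in DP. At 1088 kb the DP mean went from 36.0 to 3.70 reads per fragment, 9.72-fold, which is 3.46 times the ES fold at that border. At 1108 kb the ES fold was 2.60, so that the folds of both libraries differed there 4.22 times. When the same scan was run on the SCR replicates at the same distances on both sides, 12 of 92 borders (13.0%) differed between replicates by at least the first amount and 9 (9.78%) by at least the second. The steepest folds of the replicates themselves were 4.67 and 6.56 on the higher side and 10.2 and 8.35 on the lower. A fall near the DP size therefore does occur in ES cells at another locus, but at other distances. The 10.2-fold fall was in replicate 1 at 808 kb, where replicate 2 had 4.27, and at 968 kb the replicates had 8.50 and 8.35. At 1088 and 1108 kb their folds lay between 0.52 and 3.48. A difference as large as that between DP and ES also occurs between replicates.

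A smaller share of the fragments beyond the fall had a unique end. In the 100 kb before 1088 kb, 91.6% of fragments had an end that is unique among the DpnII ends of the genome. In the 100 kb beyond only 58.3% did. With those fragments alone the DP fall at 1088 kb was 6.12-fold and at 1108 kb 8.82-fold. The ES fall shrank to 1.71-fold and 2.04-fold, and the steepest ES border was then the start of the flank. The DP end stayed within 20 kb with these fragments, and the ES end did not. A fragment was kept if either end was unique, so repeated sequence was not fully left out. Among those kept was chr17:53046818-53047008, with 1600 DP reads and a right end that is not unique. The part of strain differences in mapping was not tested.

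One fragment stands at the edge. The fragment at chr17:53046818-53047008, printed above, held 1600 DP reads and 0 ES reads. Compared with all DpnII ends of the genome, its left end matched 1 exactly and 7 within 2 mismatches. Its right end matched 2 exactly and 4555 within 2 mismatches. Without it the DP fall at 1108 kb was 8.79-fold and at 1088 kb 7.93-fold, and 1108 kb stayed the steepest border. In ES the largest fragment near the border (499 reads, chr17:53051354-53051398) lay beyond it, and without that fragment the ES fall at 1088 kb was 3.34-fold.

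The share of fragments with a read is a scale that single high fragments cannot move. In DP it went from 9.28% in the 100 kb before 1088 kb to 2.83% beyond. In ES it went from 23.6% to 11.3%. With a floor of 3 detected fragments beyond the border, the steepest border by this share was 1088 kb in DP, but in ES it was 1308 kb, after position 53270000, where the share went from 15.1% to 6.96%. The ES share was the higher one on both sides of the edge.

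**Figure D2:**
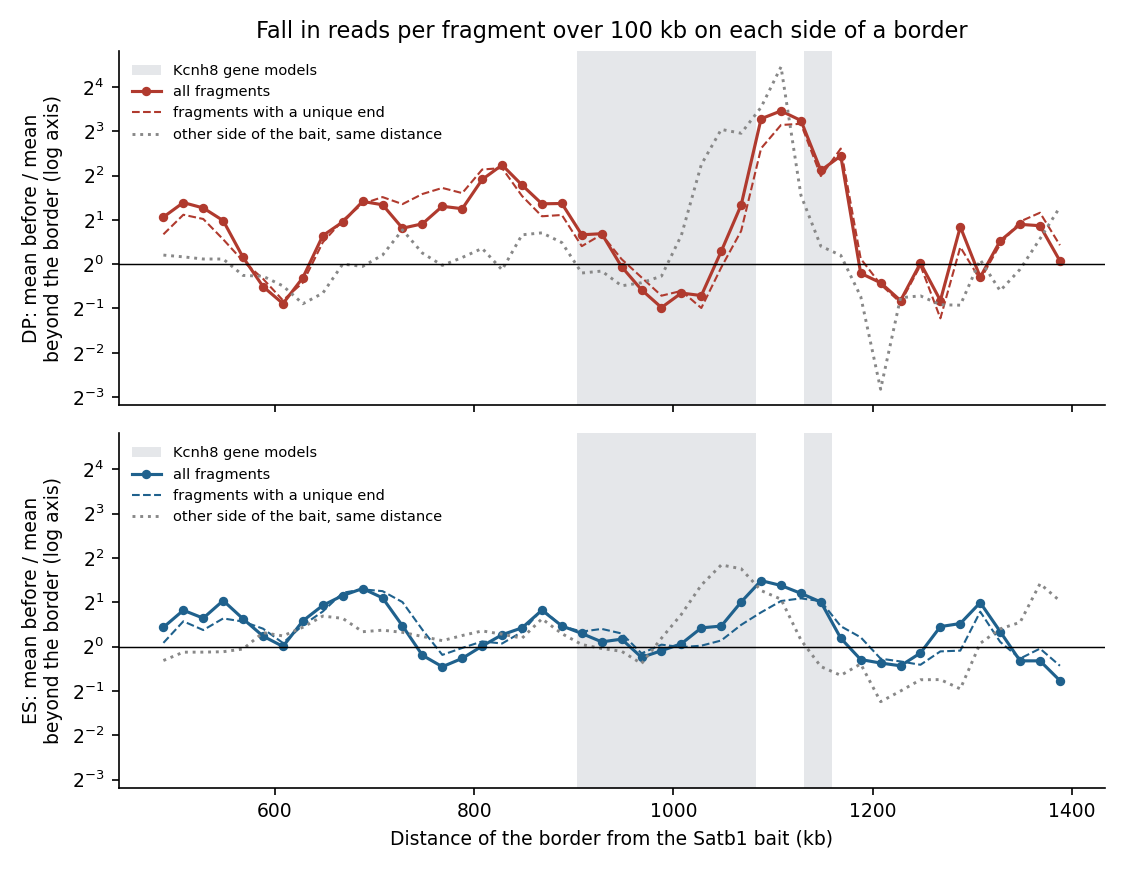
Ratio of the mean reads per fragment in the 100 kb before a border to that in the 100 kb beyond (log axis) against the border's distance from the bait, DP above and ES below. Solid lines use all fragments, dashed lines fragments with a unique end, and dotted grey lines the mirror interval on the other side of the bait; DP has its highest tops at 1108 kb (10.99), 1168 kb (5.44) and 828 kb (4.72), with lower ones at 508, 768 and 888 kb and at the start of the flank, and the ES tops at 548 kb, at the start of the flank and at 1088 kb stay under 3-fold.

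The other side of the bait had a fall of like size as far away. The mirror interval there, chr17:50462000-51273999, holds 1995 fragments and most of Tbc1d5, a gene of 446 kb for a Rab GTPase activating protein involved in retromer trafficking, which ends 1.09 Mb from the bait. There the DP mean fell 21.9-fold at 1108 kb and 11.6-fold at 1088 kb. The ES mean fell 2.10-fold and 2.40-fold at these borders, with its steepest mirror fall of 3.59-fold at 1048 kb. The fall past 1 Mb was thus not particular to the flank.

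Nearer the bait the DP scan had 5 tops of at least 2-fold. Those at 508, 768 and 888 kb were 2.62, 2.47 and 2.58-fold, against 1.77, 0.73 and 1.38 in ES. At the start of the flank the fall was nearly the same in both libraries, 2.67-fold in DP and 2.48-fold in ES, and both were higher over the 350 kb before it (means of 359.8 and 120.8 reads per fragment). At 828 kb, after position 52790000, the DP mean fell from 124.1 to 26.3, 4.72-fold, and the ES mean from 39.3 to 32.65, 1.20-fold. These folds differed 3.92 times, and 9 of 92 borders differed at least that much between the SCR replicates. All of those replicate borders lay at 1088 kb or beyond. At 828 kb itself the replicate folds were closer together, 3.49 and 6.56 on the higher side and 4.89 and 2.72 on the lower. The border at 828 kb was picked for its DP fall, and the replicates had no such choice. In the mirror interval the ratio at 828 kb was 0.915 in DP and 1.22 in ES, so DP had no fall there as far from the bait.

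The levels can also be read against the enhancer stretch before the flank. In 50 kb steps, every step of the flank was below 50% of that level in both libraries. Every DP step from 788 kb on was below 25% and every one from 1088 kb on below 10%. The DP steps from 838 to 988 kb were already below 10%, with means of 32.1, 16.7, 20.2 and 15.2 reads per fragment, before the step at 1038 kb rose to 53.1. Every ES step from 1038 kb on was below 25%, as were the earlier ones at the start of the flank (27.2 reads per fragment) and at 888 kb (24.4), and ES never stayed below 10%.

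The flank was divided at these borders, after they had been seen, into an inner stretch of 140 kb, a middle stretch of 260 kb and an outer stretch of 412 kb. The inner stretch was higher in DP, with 103.7 reads per fragment against 35.4 in ES. The middle stretch was about level, with 28.5 in DP and 31.8 in ES. The outer stretch was lower in DP, with 3.02 against 12.002. On quantile-normalized counts the ratios of DP to ES were 2.73, 0.856 and 0.258.

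These ratios can be set against the SCR replicates over the same distances. The inner stretch of the replicates differed 1.13-fold and 1.53-fold on its 2 sides, less than the 2.73-fold between DP and ES. That stretch was ended at 828 kb because of the DP fall seen there, and the replicates had no such choice. The inner comparison is thus uneven, and no conclusion is drawn from it. The middle stretch differed 1.60-fold and 1.24-fold, in both cases further from 1 than the 0.856 here. The outer stretch differed 1.20-fold on one side and 4.44-fold on the other, so the outer difference between DP and ES, 0.258, was within the larger of the replicate differences. Scaled to reads within 1.5 Mb the DP to ES ratios were 2.18, 0.668 and 0.187.

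The 2 libraries spread their reads differently over the 3 stretches, which hold 343, 584 and 1216 fragments. Per fragment the mean fell from the inner to the outer stretch in both. Of the flank's DP reads 63.7% lay in the inner, 29.8% in the middle and 6.57% in the outer stretch. In ES these shares were 26.8%, 40.97% and 32.2%. Within each library the inner mean was 3.64 times the middle one in DP and 1.11 times in ES, and the middle mean was 9.43 times the outer one in DP and 2.65 times in ES. With fragments of unique ends only, the latter ratios were 6.60 and 1.88.

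The share of detected fragments divided the stretches in the same order. In the inner stretch 136 of 343 fragments had a DP read (39.7%, Wilson interval 34.6 to 44.9%) and 100 an ES read (29.2%, 24.6 to 34.2%). In the middle stretch the shares were 11.3% (8.98 to 14.1%) in DP and 24.7% (21.3 to 28.3%) in ES. In the outer stretch 20 of 1216 had a DP read (1.64%, 1.07 to 2.53%) and 148 an ES read (12.2%, 10.5 to 14.1%). The 2 SCR replicates detected 12.2% and 19.0% of outer fragments on the higher side and 3.25% and 6.77% on the lower, which is closer together than DP and ES were. Of inner fragments they detected 40.9% and 59.1% on the higher side and 45.9% and 54.1% on the lower. The higher-side pair was further apart than DP and ES in the inner stretch, and the lower-side pair closer together. Replicate 2 detected more fragments although it had fewer reads.

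**Figure D3:**
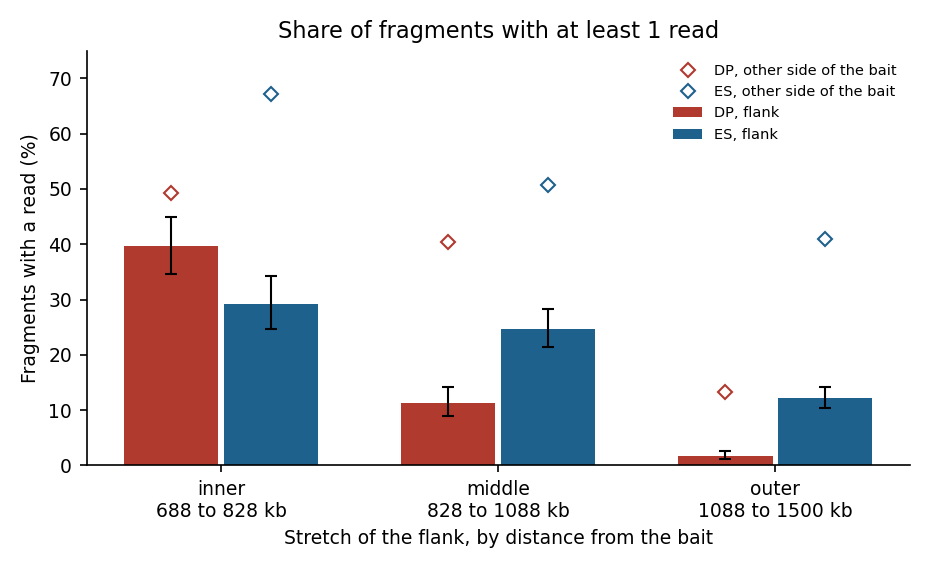
Share of fragments with at least 1 read (%) in the inner, middle and outer stretches of the flank; bars are DP and ES with 95% Wilson intervals that cover counting only, and diamonds are the same stretches in the mirror interval. DP stands above ES in the inner stretch only, and all diamonds stand above the bars of their own library.

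Both libraries had fewer contacts in the flank than in its mirror interval. The mirror mean in DP was 64.3 reads per fragment and in ES 81.5, 2.47 and 3.86 times that of the flank. Stretch by stretch the flank reached 0.739, 0.260 and 0.185 of the mirror mean in DP, from the inner to the outer, and 0.241, 0.330 and 0.221 in ES. Single steps of 20 kb stood above their mirror steps, among them the DP steps at 1048 kb (49.6 against 13.0 reads per fragment) and 1068 kb (46.3 against 31.6) and the ES step at 1068 kb (33.6 against 18.1).

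Past the flank contacts were lower still. From 1.5 to 5 Mb on the same side DP had a mean of 2.56 reads per fragment and ES one of 7.80. The DP mean of the outer stretch, 3.02, was near that distant level, and the ES mean, 12.002, was above it.

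Of the 41 steps of 20 kb in the flank, 5 (12.2%) were at least 2-fold higher in DP, against 12.9% (19 of 147) over all steps within 1.5 Mb of the bait. In the other direction 18 (43.9%) were at least 2-fold higher in ES, against 36.1% (53 of 147). Steps higher in DP were thus as common in the flank as around the bait, and those higher in ES somewhat more so. Of the 18, 15 lay past 1088 kb, and 9 had no DP read at all, which is below the floor of 3 reads used for a ratio. Of the 5, 3 lay before 768 kb and the other 2 were past 1088 kb and rested on 1 or 2 detected DP fragments.

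Single steps were less steady than these counts. Between DP and ES the median difference of a step was 1.59-fold before 1088 kb and 7.78-fold past it, where 17 of 21 steps (81.0%) were at least 2-fold apart. Between the SCR replicates at the same distances the medians were 2.16-fold and 13.4-fold, and past 1088 kb 36 of 42 steps (85.7%) were at least 2-fold apart. The size of a step's difference between DP and ES was thus not larger than between replicates on either side of the edge. In direction, ES was the higher library in 18 of the 21 steps past 1088 kb and DP in 3, with a median log2 ratio of DP to ES of -2.96. Between the replicates the median log2 ratio at those distances was 1.42.

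**Figure D4:**
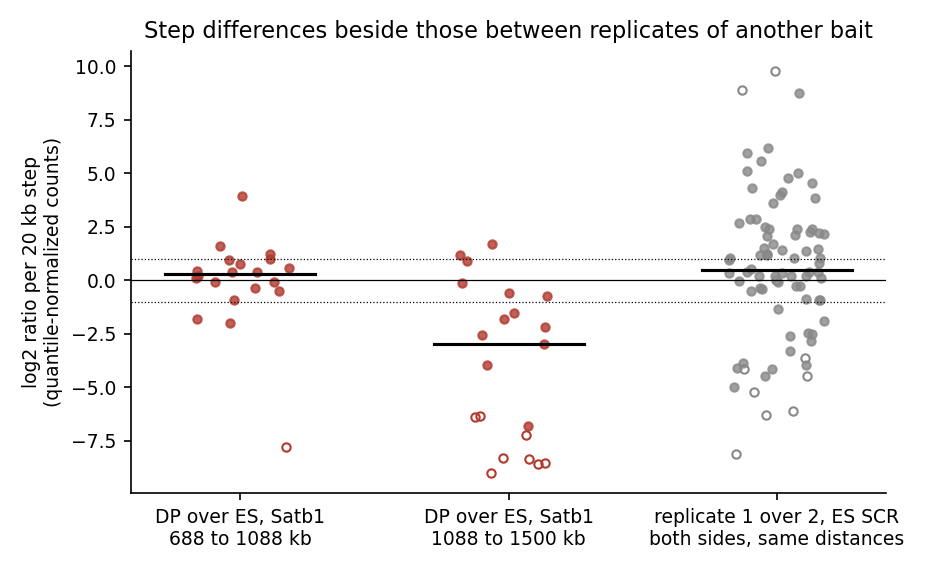
log2 ratio of quantile-normalized counts per 20 kb step for DP over ES in the 2 parts of the flank and for replicate 1 over replicate 2 of ES SCR at the same distances. Each point is a step, and black bars are medians. Open points are steps where the normalized value of a library was below the floor of 3 reads. The DP over ES steps past 1088 kb lie mostly below 0, with a median of -2.96, and the replicate steps lie on both sides of 0.

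The step with the highest ratio of DP to ES was in the inner stretch. At 728 kb (chr17:52690001-52710000) DP had 265 reads per fragment, with 27 of 45 fragments detected, and ES had 19.2, with 11 detected. The normalized ratio of 15.1 was the highest of 147 steps, ahead of 4.84 in a step of the enhancer stretch at 628 kb. Its DP reads did not come from one fragment, since the top one held 16.6% of them. It reached 1.698 times its neighbours in DP, below the 2-fold rule for a raised step, and 0.39 times in ES. Its log2 ratio of DP to ES was 3.92. Between the SCR replicates the median step before 1088 kb differed 2.16-fold, but some differed more than this one. On the higher side the log2 ratio was -4.09 at 868 kb (172 against 4024 reads) and 4.29 at 1008 kb (7061 against 451). Both of those steps lie past the inner stretch. Over the distances of the inner stretch the replicate log2 ratio largest in size was 2.08 on the lower side and -1.35 on the higher side. A difference of the size at 728 kb thus occurs between replicates further out, but not at the distances of the inner stretch. The step at 728 kb was picked as the highest of 147, and the replicates had no such choice.

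Within the step at 728 kb the highest fragments were DP fragments. The printed top fragment at chr17:52696326-52696664 held 1987 DP and 171 ES reads. The next, at chr17:52697796-52698699, held 1750 DP and 0 ES reads, and the third, at chr17:52708882-52709367, held 1520 DP and 0 ES reads. All 3 are intergenic. For the first and the third both ends matched only 1 DpnII end of the genome even within 3 mismatches.

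The step also stood out by its sequence. The core consensus of CTCF, searched on both strands, matched 83 times in the 3 Mb around the bait and 33 times in the flank, in 21 of its 41 steps (51.2%) against 58 of 150 steps (38.7%) in all. The step at 728 kb held 6 matches, the most of the 150 steps, and the next highest held 3. All 6 were on the plus strand, as were 24 of the 33 matches of the flank. They are shown 5′ to 3′ in mm9 with 10 bases on each side, the matched letters in capitals.
chr17:52694163-52694174: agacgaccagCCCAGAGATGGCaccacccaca
chr17:52699451-52699462: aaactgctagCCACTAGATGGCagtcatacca
chr17:52699611-52699622: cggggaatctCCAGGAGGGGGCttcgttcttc
chr17:52704954-52704965: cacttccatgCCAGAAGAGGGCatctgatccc
chr17:52705078-52705089: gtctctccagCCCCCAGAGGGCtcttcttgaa
chr17:52709096-52709107: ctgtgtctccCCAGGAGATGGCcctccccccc
The last of them lies inside the fragment with 1520 DP reads, and the second and the third share a fragment with 421 DP and 0 ES reads. The first lies in a fragment with 21 DP and 112 ES reads, and the fifth in one with no reads. A match of letters is not a bound site, and no binding data were used. Over the whole flank 32 fragments held a match, of which 8 had a DP read (25.0%) and 6 an ES read (18.8%). Over all fragments of the flank the shares were 10.4% in DP and 18.3% in ES, so the ES share was near that of all fragments. Most of the 8 lay in the inner stretch, where DP detected 39.7% of all fragments. Fragments with a match are also long (median 574 bp against 231 bp over the flank).

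The edge past Kcnh8 had no such matches near it. The nearest ones lay 51.3 kb before 1088 kb, inside Kcnh8, and 48.2 kb beyond, inside the second gene model. A pair of plus-strand matches lay 2.6 and 6.7 kb past the DP fall at 828 kb. One of these fragments held 0 reads in both libraries and the other 91 DP and 0 ES reads.

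Few places in the flank stayed raised above their surroundings. A 20 kb step was called raised when its mean was at least 2 times that of the 5 steps on each side. In DP 6 of 41 steps (14.6%) met this, against 8.76% (12 of 137) of all steps within 1.5 Mb. In ES 3 of 41 (7.32%) did, against 5.84% (8 of 137). No step was raised in both libraries.

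The main raised place in DP was the end of Kcnh8. The 3 neighbouring steps from 1028 to 1088 kb had 47.4, 49.6 and 46.3 DP reads per fragment and stood 2.64, 2.92 and 2.90 times above their neighbours. The same steps had 26.5, 36.6 and 33.6 ES reads per fragment and stood 1.08, 1.76 and 1.72 times above theirs. They rested on 5 or 6 detected fragments each in DP. Part of each ratio comes from the low steps past the edge, which are among the neighbours.

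The top fragments of those steps lay within or just past the gene. In the first it was chr17:53005886-53006349, in an intron of Kcnh8, with 938 DP and 61 ES reads. In the second it was chr17:53011032-53011613, also intronic, with 894 DP and 0 ES reads. Both ends of both fragments were unique within 3 mismatches. In the third it was the printed fragment with near copies elsewhere, which held 58.5% of the step's DP reads.

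The other 3 raised DP steps, at 1228, 1268 and 1388 kb, were single places. They had 8.55, 10.5 and 9.32 reads per fragment and rested on 2, 1 and 1 detected fragments. Their top fragments were chr17:53200191-53201306 with 440 DP and 0 ES reads, chr17:53244295-53245615 with 548 DP and 385 ES reads, and chr17:53352838-53352992 with 671 DP and 0 ES reads. The last has a right end that occurs 55 times among the DpnII ends of the genome. A single high fragment cannot be told from copies of one ligation.

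Raised ES steps lay only beyond the edge. They were at 1248, 1408 and 1428 kb, with 22.5, 28.8 and 26.0 ES reads per fragment and 2.23, 2.46 and 2.18 times their neighbours. Each rested on 8 to 10 detected fragments, more than the DP ones, and all 3 had no DP read. Their top fragments were chr17:53219000-53219712 with 468 ES reads, chr17:53369843-53371708 with 371 and chr17:53394222-53394367 with 752. The other high ES fragments of the flank were the printed one at chr17:52739893-52740502, with 1315 ES and 0 DP reads, chr17:52669728-52670647, with 917 ES and 746 DP reads, and chr17:53316684-53316906, with 792 ES and 0 DP reads.

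**Figure D5:**
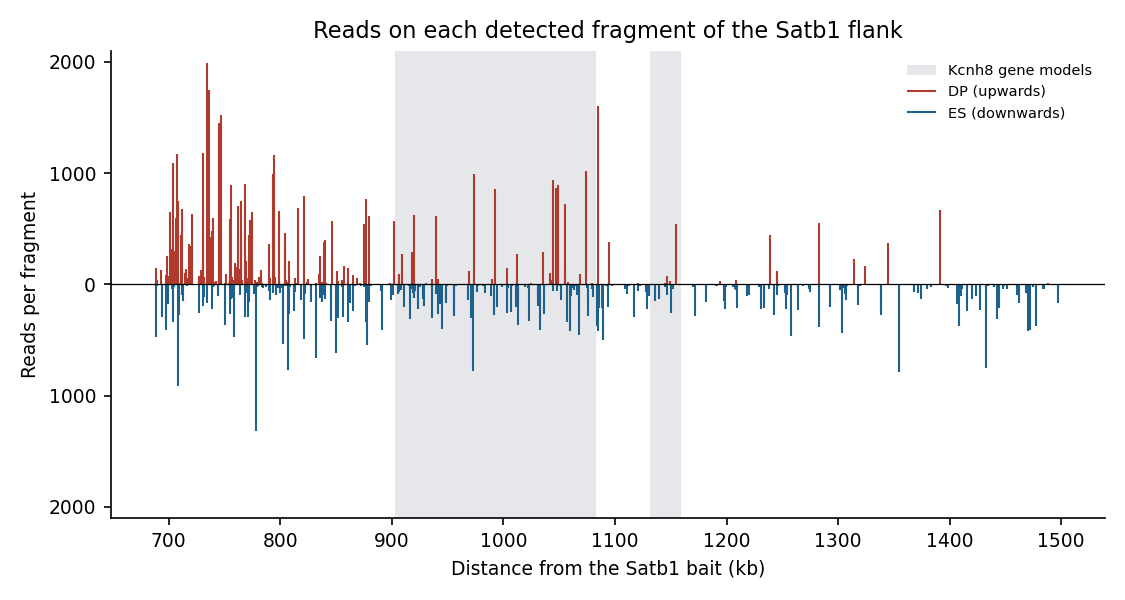
Reads on every detected fragment of the flank against distance from the bait, DP upwards and ES downwards, with the Kcnh8 gene models shaded. DP fragments crowd before 828 kb and thin out past 1088 kb, where 20 were detected against 148 in ES.

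Over its own length Kcnh8 was contacted about equally. The first gene model had a mean of 25.9 DP and 29.1 ES reads per fragment, with 34 fragments detected in DP and 95 in ES. The second gene model had 10.0 and 11.1, with 5 and 11 fragments detected. On the mirror side Tbc1d5 had 126.8 DP and 116.1 ES reads per fragment.

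The profiles of the 2 cell types were alike mainly in their decline. Over the 41 steps the mean reads of DP and ES had a Pearson r of 0.39 and a Spearman rho of 0.59. Before 1088 kb these were -0.05 and 0.18 over 20 steps, and past it -0.37 and -0.37 over 21 steps. The steps share the 2 libraries and the fall with distance, so these values are a description. The share of bases that are G or C was alike in the 3 stretches (40.7, 40.2 and 40.8%), whereas fragments were shorter in the outer one (median 208 bp against 252 and 284 bp) and fewer of them had a unique end (61.7% against 75.8 and 84.6%). Their part in the fall was not tested beyond the fits with unique ends.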

How the data were processed

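Genomic DNA of 2 libraries was used, 1 of DP and 1 of ES cells with the Satb1 bait, and 2 ES SCR libraries as a gauge. The deposited values are counts of reads on each DpnII fragment of the chromosome that holds the bait, not normalized. To make these counts the authors trimmed bait sequence allowing 2 mismatches, mapped the 26 nt prey to mm9 with Bowtie version 1.0.0 (submitters' processing notes, which also name bcl2fastq), and assigned reads to fragments. How reads with several matches were treated is not given in the sources used here. PCR copies were not removed. DP nuclei were treated with 0.7% SDS per the methods and 0.4% per the labels.

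All 229546 listed midpoints matched a DpnII fragment of NCBIM37 (mm9), and genes are those of GENCODE vM1. With Python version 3.11.15, numpy version 2.4.6, pandas version 2.3.3 and scipy version 1.17.1, counts were quantile normalized within 1.5 Mb of the bait (range chosen here), averaged in 20 and 50 kb steps and scanned for borders on counts as deposited. Ratios use a floor of 3 reads per step. Intervals are 95% Wilson (statsmodels version 0.14.6). The scan was tested on simulated profiles in which a larger share of fragments held reads than around the edge in either library. That test does not show how the scan does on counts this sparse. There was no replicate and so no test. Named were the genes overlapping the interval, the nearest at each end, Satb1, Tbc1d5, the top fragment of each raised step and the 3 top fragments per library; the other fragments, the stretches and the SCR scan were chosen after values were seen. The interval and all lists were chosen with earlier results of these data known. Alternatives were border widths and spacing, scalings, step size, a cap on high counts and subsets of fragments.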

Additional observations from a re-analysis of the deposited data

How the results depend on the processing

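Of 64 alternative values, 32 stayed near the main one, 30 moved and 2 reversed. The last base before the DP end was 53070000 and stayed within 20 kb with borders every 50 kb, the cap, fragments with a GTAC site or a unique end, the share of detected fragments, normalized counts and without its top fragment. With 50 kb on each side of a border it moved to 53390000, where almost no reads are left, with 200 kb to 52790000, and by the difference in place of the ratio to 52470000. The ES end, 53050000, moved to 52650000 with 50 kb sides, 52510000 with 200 kb sides, 52650000 with unique ends, 53270000 by detected share and 52510000 by the difference. The DP fall of 10.99 was 4.192 with 50 kb sides, 7.75 with 200 kb, 9.723 with borders every 50 kb, 8.862 with GTAC fragments, 8.82 with unique ends, 2.329 by detected share, 9.229 on normalized counts and 8.787 without the top fragment. The ES fall of 2.81 was 2.202, 2.459, 1.71 (unique ends), 2.09 (detected share), 3.008 (normalized) and 3.341 (without the top fragment). The level of DP over ES, 1.188, was 1.404 with GTAC fragments, 1.213 with unique ends and 1.142 scaled to the reads of the chromosome, and reversed to 0.9191 scaled to those within 1.5 Mb and 0.5663 by detected share. Steps higher in DP were 3 when scaled to the reads within 1.5 Mb. In 50 kb steps 2 were raised in DP and 0 in ES (no test was run, so there is no unadjusted p), 2 were higher in DP and 8 in ES. The cause of these moves was not tested. The alternatives with unique ends, normalized counts, the difference and without the top fragment were chosen after seeing the data. No paired analysis was possible because DP and ES have 1 library each. The depth of DP sets only a bound in the 9 steps with no DP read, which are below the floor of 3 reads.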
